A study of Gallus gallus with 5 samples.

Results

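The transcriptome of chicken DT40 cells labelled as deleted for the linker histone variant H1R was compared with that of wild-type DT40 cells on 4 of the 5 Affymetrix chicken arrays of the series. The arrays were chosen by their titles: H1R replicates 1 and 2, and wild-type (WT) replicates 1 and 2. The fifth array, of another H1 deletion, was not used. DT40 is an established B cell line in which introduced DNA often integrates by homologous recombination, so that genes can be deleted. The H1R cells carry the label R-/-, a deletion of both copies, and the WT cells carry no deletion by their labels. No agent was given to either group. The medium stated for the mutant cells was RPMI 1640 with 10 µM 2-mercaptoethanol, 10% fetal calf serum and 1% chicken serum at 39.5 °C, while that of the WT cells is not stated apart. RNA was taken during exponential growth. The labels state neither how many deleted clones the H1R arrays represent nor whether replicates came from separate cultures. The p-values may therefore reflect technical spread alone.

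Linker histones bind the DNA that enters and leaves the nucleosome and help fold chromatin into a compact fibre. Vertebrates encode several variants, whose genes lie mostly among the core histone genes, and loss of a single variant is often tolerated. In the study design linker histones are named as a supposed general repressor of genes, and the arrays were used to look for genes that depend on a single variant.

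A signal is the brightness of a probe set, a group of short probes for 1 transcript, in the units of the GCOS array software. The median signal was 19.9 and 22.4 on the H1R arrays, against 19.9 and 20.7 on the WT arrays. A background limit was set for each array as the highest signal among 23 control probe sets with no target in chicken RNA. It was 18.0 and 33.6 on the H1R arrays and 29.2 and 21.4 on the WT arrays, which left between 41.0% and 52.5% of probe sets above it. Pearson correlations of log2 signals across probe sets were 0.954 between the H1R arrays, 0.955 between the WT arrays and 0.937 to 0.948 between groups. Signals of actin at its 3′ end over those at its 5′ end, a quotient that grows as RNA degrades, were 3.87 and 2.25 in H1R against 2.81 and 2.02 in WT. This quotient was higher in H1R on each day, and its part in the differences below was not tested. By a date code in the sample descriptions, the replicates numbered 1 share one day and those numbered 2 share a later day.

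The probe sets of linker histones come before all others. HIST1H111R, the gene whose name is closest to the H1R label, read 28.9 and 7.0 in H1R against 36.1 and 39.4 in WT. Its log2 fold change was -1.05 ± 0.48 (limma adjusted p = 0.30), and H1R replicate 1 lay above the background limit of its array. HIST1H111L read 981.8 and 2372 in H1R against 1320 and 2034.8 in WT, and the groups overlapped (log2 fold change -0.10 ± 0.20, limma adjusted p = 0.86). By their names both probe sets stem from 1 sequence cluster, that of HIST1H111R in antisense and that of HIST1H111L in sense orientation, and the labels do not say that H1R is HIST1H111R. Neither probe set therefore checks the label. H1FOO, the oocyte linker histone, was too dim to be tested, with 8.0 and 32.9 in H1R and 3.5 and 3.6 in WT. Throughout, H1R stands for the arrays labelled so.

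Differences were tested as log2(signal + 5.7) in limma with the day as a block, over 23050 probe sets whose mean signal passed a filter on dim values. Fold changes are H1R over WT, and adding 5.7 understates those of dim genes. With a Benjamini-Hochberg adjusted p under 0.05 as threshold, 989 probe sets passed, 560 higher and 429 lower in H1R, which is 2.43% and 1.86% of those tested, or 4.29% together. All 989 differed in the same direction on both days. The fit largely fixes this, since a disagreement between the days counts as its residual spread. Without the day term limma called 285 probe sets, 144 higher and 141 lower (0.625% and 0.612%, or 1.24% together), all of them among the 989. With 1 array left out and no day term the count ran from 103 (without WT replicate 1) and 169 (without WT replicate 2) to 323 (without H1R replicate 1) and 425 (without H1R replicate 2). The larger count rests on the spread that limma predicts from the brightness of a probe set, since the day block leaves 1 residual degree of freedom. With the same block and no such trend 0 passed, while 2977 had an unadjusted p under 0.05 against 3905 with the trend. Without block and trend 142 passed. Arrays were also simulated with a spread drawn from the trend of the fit and with its day effects shuffled over the probe sets. On them the share of false calls exceeded the adjusted threshold in some runs of the fit with the day as block. It did so in no run without the day term. There the simulated day effects widen the residual spread, so this cannot show the share of false calls in the real data. Because of the runs with the day as block, the text gives the genes that pass with and without the day term most room. It says where a gene passed with the day term alone.

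**Figure D1:**
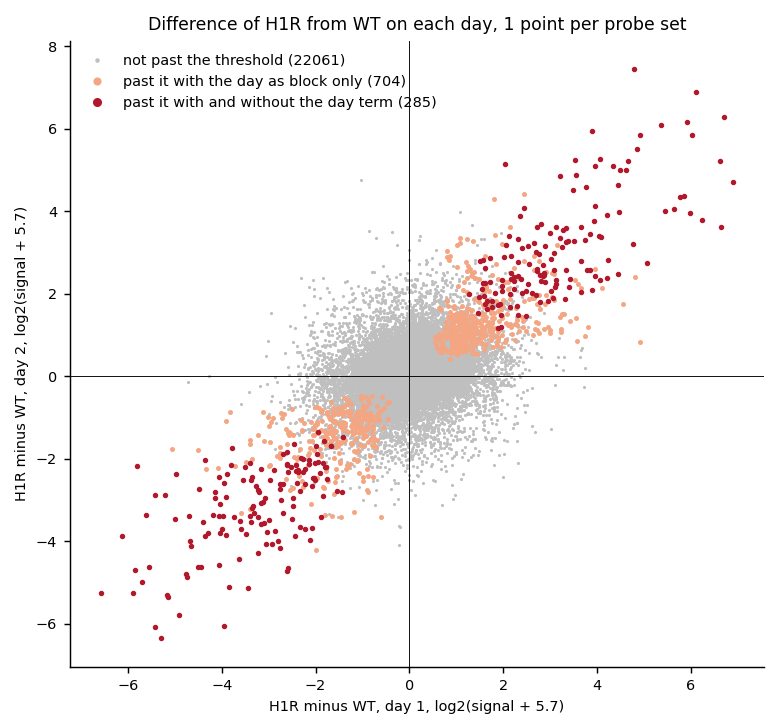
Difference of H1R from WT for each of 23050 probe sets on the first day (x axis) and the second day (y axis), both as log2(signal + 5.7). The 989 probe sets past the threshold lie in the upper right and lower left, which the fit largely fixes. The 285 that also pass without the day term are in dark red. They are not simply the farthest from 0. ALDH2 and COL1A2, which pass with the day as block only, lie farther out on both days than CD79B, which passes both ways.

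Changes in H1R were often large. Of the probe sets that passed, 184 were higher and 185 lower by at least 2 log2 units, and 32 and 29 by at least 4. Taking the brightest probe set of each gene, 329 of 9968 genes were higher (3.3%) and 240 lower (2.41%), in all 569 genes or 5.71%. Without the day term 184 genes passed (1.85%), 94 higher (0.943%) and 90 lower (0.903%). Of the 329 higher genes, 68 lay at or below the background limit on both WT arrays and above it on both H1R arrays, and 219 were above it on all arrays. The reverse held for 51 of the 240 lower genes, with 150 above it on all arrays. Where 1 group lay at or below that limit on both arrays, a minimum fold against it is given. Where it did so on 1 array, the fitted fold change is given, which then rests in part on a signal not above background. Among the genes below this holds in WT replicate 1 for SLC39A8, VLDLR, COL1A2, CD5 and MMP9, and in H1R replicate 2 for TNFSF13B, TNFRSF1B, SLC22A5, ITGB2, ID2, CITED4, KCNT2 and MT3. The median gene had a log2 fold change of 0.12, so that the deposited scale reads slightly higher in H1R. Of 555 further tested probe sets of 324 called genes, 510 differed in the same direction as the brightest, 195 passed that way and 1 passed the opposite way.

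The 30 strongest rises and 30 strongest falls among genes with an established symbol all passed with and without the day term. The groups did not overlap in any of the 60, which the choice of called genes with the same sign on both days largely fixes. Of all probe sets 24.9% had both H1R signals above both WT signals and 14.5% had both below. Limma adjusted p-values ran from 1.9e-06 to 0.0044 for the rises and from 3.1e-06 to 0.0043 for the falls. In 25 of the rises WT lay at or below the background limit on both arrays, and in 22 of the falls H1R did. The test was repeated without the day term and with 1 array left out in turn. Of the rises 26 passed in each of these fits, and the exceptions were SLC39A8 and TMEM2 (limma adjusted p = 0.073 and 0.066 without WT replicate 1), FOXO3 (0.11 and 0.22 without either WT array) and PELI2 (0.14 without H1R replicate 1). Of the falls 16 passed in each. Without WT replicate 1 the lost falls were TPD52, CITED4, NT5C1B, DACT2, GRIA3, SAMD12, TMEM47, IL16, GLIPR2, CD200, MME and LITAF (limma adjusted p from 0.054 to 0.19). Without WT replicate 2 they were TPD52, CITED4, NT5C1B, DPYSL3, SNX7, SAMD12, TMEM47 and MME (0.056 to 0.36).

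Smaller changes named below depended more on single arrays. Of 54 further named genes past the threshold with and without the day term, 10 passed in each fit without 1 array. They were BTLA, VPREB3, CDR2, ID2, IRF4, PRKCD, ANXA5, ALDH1A3, SLC22A5 and a second probe set of SLA. Of the others 40 lost the call without WT replicate 1, 31 without WT replicate 2, 12 without H1R replicate 1 and 11 without H1R replicate 2. The highest limma adjusted p in these fits was 0.12 for CD79B, 0.21 for CXCR4 and KCNT2, 0.29 for HSPA2, 0.14 for TNFRSF1B, 0.16 for TNFSF10 and MMP9, 0.072 for ASB2 and 0.05 for ITGB2.

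**Figure D2:**
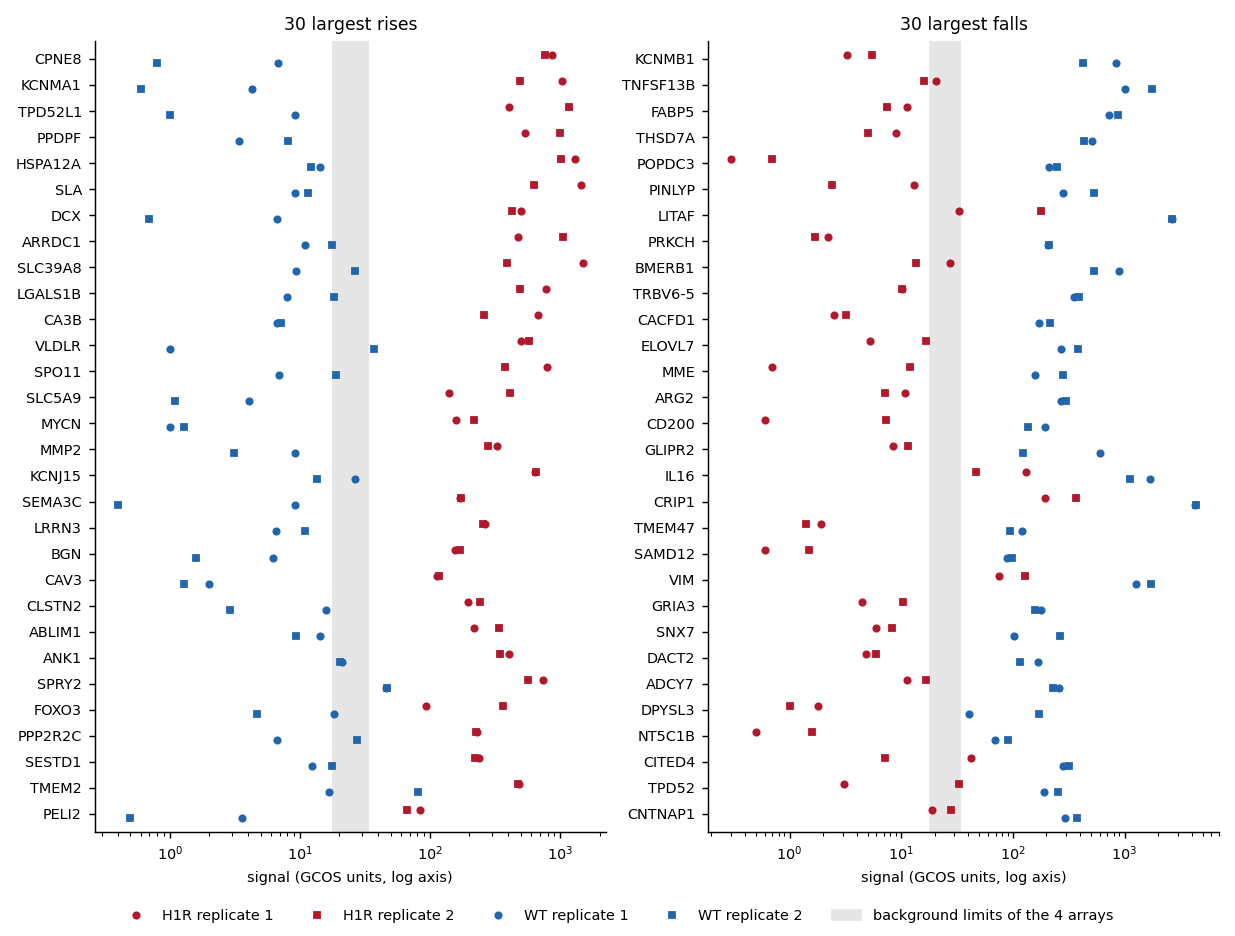
Signal on each array (log x axis, GCOS units) for the 30 largest rises (left) and the 30 largest falls (right), with H1R in red and WT in blue. Circles are replicate 1, squares replicate 2, and the grey band spans the background limits of the arrays, 18.0 to 33.6. No gene has overlapping groups.

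Subunits of potassium channels were among the strongest changes in each direction. KCNMA1, the pore subunit of the large-conductance calcium-activated (BK) potassium channel, read 1038.9 and 488.7 in H1R against 4.3 and 0.6 in WT. This was a rise of at least 28.5-fold, and all 4 of its tested probe sets passed. KCNMB1, a regulatory beta subunit of the same channel, read 3.3 and 5.5 in H1R against 846.6 and 423.4 in WT, at least 24.3-fold lower. The pore subunit was thus above background in H1R alone and the beta subunit in WT alone. KCNJ15, an inwardly rectifying potassium channel, read 643.2 and 646.2 in H1R and 26.4 and 13.5 in WT, a rise of at least 25.8-fold. Of 74 tested ion channel genes 7 were higher (9.46%) and 4 lower (5.41%), beside 3.3% and 2.41% of all genes, and 2 each way passed without the day term. Their median log2 fold change of 0.11 lay next to the 0.12 of all genes. KCNT2, a sodium-activated potassium channel, fell with and without the day term to 22.2 and 16.2 in H1R, against 128.6 and 103.3 in WT (log2 fold change -2.29 ± 0.30, limma adjusted p = 0.0014). Higher with the day term alone were CACNA2D1, KCNF1, P2RX1, ANO5 and the cation channel TRPC1, and lower with it alone were P2RX7 and the sodium leak channel NALCN. For NALCN the WT arrays were far apart, with 10.5 and 27.5 in H1R against 58.4 and 606.3 in WT.

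Solute carriers were called about as often as all genes. Of the 219 tested 5 were higher and 5 lower, 2.28% each way, beside 3.3% and 2.41% of all genes. Their median log2 fold change was 0.09, and 4 and 2 passed without the day term. SLC39A8, which carries zinc and other metal ions, read 1488.2 and 390.5 in H1R against 9.4 and 26.7 in WT (log2 fold change 5.12 ± 0.53, limma adjusted p = 2.3e-04), with WT replicate 1 below its background limit of 29.2. SLC5A9, a sodium-coupled sugar transporter, read 139.2 and 411.8 in H1R against 4.1 and 1.1 in WT, a rise of at least 9.58-fold. The carnitine transporter SLC22A5 read 35.0 and 25.9 in H1R against 332.1 and 522.6 in WT (log2 fold change -3.56 ± 0.30, limma adjusted p = 6.4e-05), and SLC17A9, which loads ATP into vesicles, read 67.4 and 79.4 against 405.3 and 653.5 (-2.72 ± 0.25). SLC2A1, the glucose transporter GLUT1, read 79.7 and 80.0 in H1R against 223.0 and 182.4 in WT and passed with the day term alone (log2 fold change -1.28 ± 0.26, limma adjusted p = 0.018).

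Among signalling proteins, SLA, an adaptor that dampens antigen receptor signalling in lymphocytes, read 1451.5 and 630.7 in H1R against 9.2 and 11.5 in WT, a rise of at least 38.3-fold in the most changed of 3 probe sets that all passed. SPRY2, which dampens growth factor signalling through MAP kinases, was present in both groups, with 737.0 and 562.3 in H1R against 46.2 and 46.4 in WT (log2 fold change 3.64 ± 0.25, limma adjusted p = 1.7e-05). Both rises lay far outside the spread of their replicates. PTPRG, a receptor tyrosine phosphatase, read 213.3 and 542.6 in H1R and 34.7 and 26.8 in WT (log2 fold change 3.26 ± 0.36), and the related PTPRK was at least 2.73-fold higher. On the other side PRKCH, a protein kinase C, read 2.2 and 1.7 in H1R against 205.2 and 212.3 in WT, at least 8.49-fold lower. PRKCD, another member of that family, read 101.6 and 65.8 against 606.2 and 786.1 (log2 fold change -2.99 ± 0.28). ADCY7, an adenylyl cyclase, read 11.2 and 16.7 in H1R against 258.7 and 229.0 in WT, at least 9.9-fold lower, although only 1 of its 3 tested probe sets passed.

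Of 34 tested genes of B cell receptor signalling 2 were higher (5.88%) and 6 lower (17.6%), beside 3.3% and 2.41% of all genes. Without the day term 1 and 3 passed, and the median log2 fold change was 0.03. The list was chosen with earlier results of these arrays known, so these shares are no measure of it. The falls that passed both ways were CD79B, PRKCD and PRKCH. CD79B, a signal-transducing chain of the receptor, read 1216.1 and 1347.6 in H1R against 3263.8 and 3744.7 in WT (log2 fold change -1.45 ± 0.16, limma adjusted p = 4.5e-04). With the day term alone, the exchange factors VAV3 and RASGRP3 and the scaffold BANK1 were lower, and PTPN6, the phosphatase SHP-1 that counters receptor signalling, was higher with 1221.9 and 1126.4 in H1R against 325.3 and 589.7 in WT. SLA was the other rise. VPREB3, a partner of the pre-B cell receptor chains, is outside that list and read 144.9 and 186.0 in H1R against 1399.6 and 1286.8 in WT (log2 fold change -2.99, limma adjusted p = 2.9e-05). BTLA, an inhibitory receptor of lymphocytes, read 472.7 and 386.6 in H1R against 3801.4 and 4431.8 in WT (-3.25). It lies next to CD200, a membrane protein that restrains myeloid cells, which was at least 6.66-fold lower.

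Cytokine genes of B cell survival and chemotaxis were among the falls. TNFSF13B, the B cell survival factor BAFF, read 20.4 and 16.1 in H1R against 1014.7 and 1775.5 in WT (log2 fold change -5.82 ± 0.29, limma adjusted p = 3.8e-06). H1R replicate 2 lay below its background limit of 33.6, and all 3 of its tested probe sets passed. TNFRSF1B, a receptor of tumour necrosis factor, read 26.5 and 18.1 in H1R against 306.1 and 144.8 in WT (-2.97 ± 0.29), and TNFSF10, the death ligand TRAIL, read 100.7 and 150.8 against 639.9 and 551.9 (-2.22 ± 0.26). These 3 passed with and without the day term, out of 24 tested genes (12.5%) in a list of TNF superfamily members and intracellular adaptors such as the TRAF proteins. Of all genes 2.41% were lower with the day term. In that list 0 were higher, beside 3.3% of all genes, and the median was -0.37. Of the 5 tested probe sets of TNFSF10, 2 passed and 4 were lower. IL16, a chemoattractant cytokine, read 132.0 and 46.3 in H1R against 1692.2 and 1118.4 in WT (log2 fold change -4.03 ± 0.26). Of 50 tested chemokine, cytokine and receptor genes 4 were higher (8.0%) and 3 lower (6.0%), beside 3.3% and 2.41% of all genes. The chemokine receptors CXCR4, with 752.4 and 1004.8 in H1R against 217.1 and 280.7 in WT (log2 fold change 1.79 ± 0.21), and CCR9, at least 4.61-fold higher, passed both ways. Of the 2 tested probe sets of CCR9 only 1 was higher. IL13RA1 and TGFB2 were higher and IL2RG and IL4R lower with the day term alone.

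Transcription regulators included MYCN, a growth-promoting factor of the MYC family, which read 159.4 and 218.9 in H1R against 1.0 and 1.3 in WT. The rise was at least 7.47-fold, and both of its tested probe sets passed. ID2, which blocks helix-loop-helix factors, read 31.0 and 31.5 in H1R against 366.3 and 323.6 in WT (log2 fold change -3.24 ± 0.26, limma adjusted p = 4.8e-05). IRF4, a factor of B and plasma cells, read 636.8 and 502.7 against 2621.1 and 2804.9 (-2.25 ± 0.19). Neither gene's groups came near each other. FOXO3, a forkhead factor, was at least 7.32-fold higher, but 1 of its 3 tested probe sets passed. CITED4, a transcriptional co-activator, read 42.1 and 7.2 in H1R against 281.4 and 317.2 in WT (log2 fold change -3.62 ± 0.42). IRF8 was higher (353.4 and 1004.3 in H1R, 197.8 and 305.2 in WT) and FOXP1 lower (70.1 and 108.1 in H1R, 367.5 and 278.3 in WT) with the day term alone.

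Of 58 tested genes of neuronal receptors and the synapse 4 were higher (6.9%) and 5 lower (8.62%), beside 3.3% and 2.41% of all genes. Without the day term 1 and 2 passed, and the median was 0.09. The strongest changes also held single genes best known from neurons or muscle. DCX, a microtubule protein of migrating neurons, read 499.4 and 426.4 in H1R against 6.7 and 0.7 in WT, a rise of at least 18.5-fold in the most changed of 3 tested probe sets, of which 2 passed. LRRN3, a neuronal leucine-rich repeat protein, was at least 10.4-fold higher, the synaptic cadherin-like CLSTN2 at least 8.69-fold, and CAV3, the caveolin of muscle, at least 4.6-fold. GRIA3, a subunit of AMPA glutamate receptors, went the other way, with 4.5 and 10.3 in H1R against 179.8 and 158.2 in WT, at least 6.86-fold lower in a gene whose 3 tested probe sets all passed. POPDC3, of the Popeye family of striated muscle, was at least 9.29-fold lower. STMN2, a neuronal stathmin, read 5224.5 and 6198.2 in H1R against 1775.2 and 3579.8 in WT, and STMN1 read 2598.9 and 3074.7 against 6465.5 and 4573.0, both past the threshold with the day term alone. SEMA3C, a secreted guidance protein and the 1 of 31 tested axon guidance genes that passed, was at least 6.83-fold higher.

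Of 77 tested genes of the matrix and its proteases 6 were higher (7.79%) and 5 lower (6.49%), beside 3.3% and 2.41% of all genes. Without the day term 4 and 3 passed, and the median was 0.02. MMP2, a gelatinase, read 327.9 and 277.4 in H1R against 9.1 and 3.1 in WT. That was a rise of at least 12.1-fold, and MMP9, the other gelatinase, read 246.2 and 389.1 against 24.1 and 61.2 (log2 fold change 2.82 ± 0.27). The proteoglycan BGN was at least 6.47-fold higher and the basement membrane protein FBLN2 at least 3.23-fold. COL1A2, a chain of type I collagen, read 98.3 and 285.1 in H1R against 6.0 and 26.5 in WT and passed with the day term alone (limma adjusted p = 1.3e-04, or 0.054 without it). THSD7A read 8.9 and 5.0 in H1R against 510.4 and 430.7 in WT, at least 19.1-fold lower in a gene with 4 of 4 probe sets past the threshold. Laminin chain LAMA5 was at least 6.84-fold lower, and the protease ADAM33 read 28.3 and 11.3 against 141.1 and 260.8. ITGB2, the integrin beta chain of leukocytes, fell to 19.0 and 12.3 in H1R, against 167.1 and 281.8 in WT (log2 fold change -3.40 ± 0.34, limma adjusted p = 1.8e-04), the 1 of 12 tested integrin genes that passed. VIM, the intermediate filament vimentin, read 74.5 and 128.5 in H1R against 1276.9 and 1739.0 in WT (-3.85 ± 0.22).

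Of 58 tested genes of fatty acid handling 2 were higher (3.45%) and 3 lower (5.17%), near the shares of all genes. Without the day term 1 and 2 passed, and the median log2 fold change was 0.13. FABP5, a fatty acid binding protein, read 11.3 and 7.4 in H1R against 720.2 and 877.8 in WT, a fall of at least 32.3-fold. ELOVL7, which elongates fatty acids, was at least 13.2-fold lower. VLDLR, a lipoprotein receptor that in hens takes up yolk into the oocyte, read 495.8 and 579.5 in H1R against 1.0 and 37.1 in WT (log2 fold change 5.0 ± 0.46), with WT replicate 1 below its background limit. CPNE8, a copine that binds phospholipid in the presence of calcium, read 858.7 and 769.6 in H1R against 6.8 and 0.8 in WT. It rose at least 32.5-fold, with all 4 probe sets past the threshold. ANXA5, an annexin, read 1802.4 and 1727.9 in H1R against 259.8 and 218.5 in WT (log2 fold change 2.86 ± 0.20, limma adjusted p = 2.0e-05), while ANXA2 read 90.9 and 37.2 against 349.7 and 453.5 (-2.65 ± 0.34). Both annexins passed with and without the day term, as did all 5 called members of the 26 tested calcium and phospholipid binders. In that list 2 were higher (7.69%) and 3 lower (11.5%), beside 3.3% and 2.41% of all genes. The 3 falls of the list were ANXA2, PRKCD and PRKCH, of which PRKCD and PRKCH were also counted under B cell receptor signalling.

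Of 65 tested heat shock genes 4 were higher (6.15%) and 0 lower, beside 3.3% and 2.41% of all genes. Without the day term 2 and 0 passed. With it 12 had an unadjusted p under 0.05, as did 3905 of all 23050 probe sets. The median log2 fold change of the list was 0.17. HSPA12A, a distant relative of the HSP70 chaperones, read 1295.2 and 1018.5 in H1R against 14.4 and 12.2 in WT, a rise of at least 45.9-fold, and the chaperone HSPA2 read 1657.8 and 3444.7 against 497.7 and 698.9 (log2 fold change 2.01 ± 0.20). Of 66 tested genes of cytochrome P450, aldehyde and carbonyl enzymes and carbonic anhydrases 3 were higher (4.55%) and 1 lower (1.52%). Of these 2 and 0 passed without the day term, and the list median was 0.14. The 3 rises were ALDH1A3 and the carbonic anhydrases CA3B and CA12, with CA12 past the threshold with the day term alone. ALDH1A3, which makes retinoic acid, read 157.3 and 121.3 in H1R against 11.5 and 8.7 in WT, a rise of at least 5.53-fold. The carbonic anhydrase CA3B was at least 16.6-fold higher. ALDH2, the mitochondrial aldehyde dehydrogenase, read 0.8 and 19.8 in H1R against 72.2 and 250.2 in WT, at least 5.46-fold lower, and passed with the day term alone (limma adjusted p = 1.7e-04, or 0.078 without it). HKDC1, a hexokinase-like protein, read 110.9 and 94.8 in H1R against 3.6 and 8.7 in WT, and it was at least 4.1-fold higher. ARG2, a mitochondrial arginase, was at least 11.6-fold lower in 1 probe set, while its other 2 probe sets had log2 fold changes of 0.04 and 0.21.

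Of 196 tested genes in a list of ubiquitin ligases and their adaptors 9 were higher and 1 lower. These are 4.59% and 0.51%, beside 3.3% and 2.41% of all genes, and without the day term ASB2 alone passed. ASB2, an adaptor of cullin ligases, read 376.2 and 342.9 in H1R against 46.7 and 58.4 in WT (log2 fold change 2.65 ± 0.26, limma adjusted p = 1.6e-04). The median log2 fold change of the list was 0.03, below that of all genes. A list of small GTPases and their regulators also held RGS genes, regulators of G protein signalling, of which RGS18 was among the rises. Of its 200 tested genes 6 were higher (3.0%) and 10 lower (5.0%), or 1 and 2 without the day term. TBC1D30 fell to 34.7 and 102.6 in H1R, against 455.5 and 495.4 in WT (-2.86 ± 0.32). A list of G protein-coupled receptors had 0 higher and 6 lower (6.82%) of 88 tested genes. Among these falls GPR157, at least 4.66-fold lower, passed without the day term, and the list median of 0.11 lay near that of all genes. The list left out CXCR4 and CCR9, receptors of the same class that were higher and were counted with the cytokine genes.

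Of 15 tested end joining genes 0 were higher and 2 lower (13.3%, beside 2.41% of all genes). LIG4, the ligase that seals double-strand breaks, read 115.5 and 112.2 in H1R against 370.5 and 319.6 in WT (log2 fold change -1.55 ± 0.24, limma adjusted p = 0.0041), and POLL, a gap-filling polymerase, read 140.2 and 106.7 against 234.8 and 368.8 (-1.23 ± 0.29). Both passed with the day term alone (limma adjusted p = 0.061 and 0.22 without it). SPO11, which cuts DNA in meiosis and belongs to none of the lists, was at least 21.8-fold higher, with 790.0 and 377.2 in H1R against 6.9 and 19.0 in WT. Of 34 tested homologous recombination and Fanconi genes 0 passed in limma, and 4 had an unadjusted p under 0.05 (2 without the day term). Likewise 0 of 19 damage checkpoint genes passed, with 5 at an unadjusted p under 0.05 (2 without the day term). Of all genes 5.71% passed, and at that share lists of this size hold few calls. Of all 23050 probe sets 3905 had an unadjusted p under 0.05 (2343 without the day term). TET1, which oxidises methylated cytosine, read 681.1 and 537.1 in H1R against 147.0 and 232.9 in WT, the 1 of 26 tested DNA methylation and heterochromatin genes that passed (log2 fold change 1.68 ± 0.27, limma adjusted p = 0.0049, or 0.067 without the day term).

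Other lists held no or few changed genes. Limma called 0 of 28 Wnt, 18 Notch, 34 homeobox, 19 nuclear receptor and 7 core histone genes, with and without the day term. With it 5.71% of all genes passed, and at that share lists of this size hold few calls or none. With the day term 5, 2, 4, 7 and 1 of the listed genes had an unadjusted p under 0.05, as did 3905 of all 23050 probe sets. The Wnt list left out CTNNB1, the gene of beta-catenin, and DACT2, so its 0 calls do not cover every gene of that pathway. CTNNB1, counted with the cadherins, was higher with the day term alone (log2 fold change 0.84, limma adjusted p = 0.017). DACT2, in none of the lists, was at least 5.69-fold lower and passed with and without the day term. Of 66 cytosolic ribosomal protein genes 1 passed, RPL22L1, with the day term alone, and its WT arrays stood apart, with 7400.4 and 7720.7 in H1R against 620.5 and 4259.7 in WT. Of 32 cell cycle genes CCND2, which drives entry into S phase, was higher, with 1796.0 and 2010.2 in H1R against 952.9 and 1147.1 in WT (log2 fold change 0.86 ± 0.18, limma adjusted p = 0.021, or 0.20 without the day term). Of 22 apoptosis genes CASP8 was higher (543.1 and 626.1 in H1R, 268.9 and 367.4 in WT) and BAK1 lower (45.6 and 53.7 in H1R, 145.3 and 161.2 in WT), both with the day term alone. Over all 40 lists together 134 of 1762 distinct tested genes passed (7.6%), 69 higher and 65 lower, and 57 did so without the day term. The lists were chosen with earlier results of these arrays known, so neither that share nor the share of any single list is a measure of the lists.

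**Figure D3:**
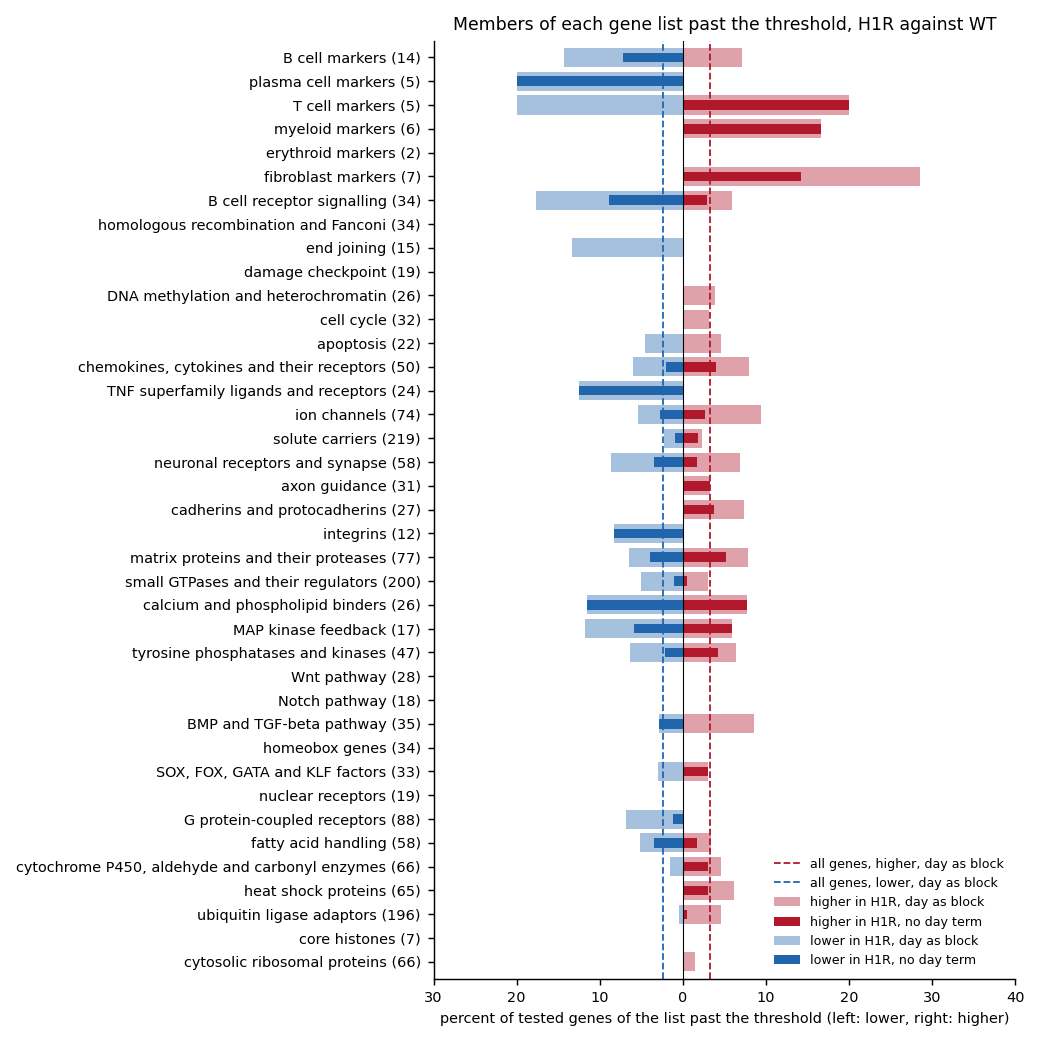
Percent of the tested genes of each list (number in brackets) that passed the threshold, lower in H1R to the left and higher to the right, with the day as block (pale bars) and without the day term (dark bars). The dashed lines mark 3.3% higher and 2.41% lower, the shares of all genes with the day as block.

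Markers of cell types were read on the same arrays. All 14 B cell markers on the array lay above the background limit on every array, and their summed signal was 14216 and 15044 in H1R against 15343 and 23522 in WT. Of 5 plasma cell markers 4 lay above it on every array, with a sum of 11038.5 and 8994.5 in H1R against 14571 and 13164.9 in WT. The sum of 10 T cell markers was 1587 and 1015 in H1R against 2586 and 4383 in WT. Above the limit lay 5 and 3 of them in H1R and 3 and 5 in WT. Most of the sum was CD3D (log2 fold change -1.73 ± 0.28, past the threshold with the day term alone). CD247 lay above the limit on every array, with 34.7 and 33.7 in H1R against 53.1 and 124.3 in WT. CD8A lay above it on every array except H1R replicate 2, CD3E in WT replicate 2 alone (118.7) and CD28 in H1R replicate 1 alone (24.0). CD4, LCK and ZAP70 lay at or below 13.0 on every array. TRBV6-5, a T cell receptor gene outside the list, read 10.2 and 10.2 in H1R against 355.1 and 388.6 in WT, at least 15.1-fold lower. CD5, which is also carried by some B cells, read 246.0 and 208.3 in H1R against 17.7 and 36.1 in WT (log2 fold change 2.89 ± 0.32, limma adjusted p = 3.6e-04). Of 10 myeloid markers 4 to 6 lay above the limit. The sum of all 10 was 1829 and 2246 in H1R against 1216 and 1575 in WT, mostly SPI1, a factor that B cells also make. CSF1R lay above the limit on every array as well, and MARCO and MMP9 did on every array except WT replicate 1. CSF3R lay at or below 3.9 throughout. The sum of 12 fibroblast markers was 615 and 774 in H1R against 223 and 245 in WT, of which 5 or 6 and 3 or 5 lay above the limit. MMP2 and COL1A2 made up most of the difference. COL3A1 lay above the limit on every array, with 60.7 and 47.6 in H1R against 63.6 and 34.7 in WT. So did FN1, with 30.5 and 41.0 against 37.3 and 47.0, and PDGFRB did on every array except WT replicate 1. DCN and LUM lay at or below 8.6 on every array. The 5 erythroid markers summed to 58.3 and 98.6 in H1R and 59.8 and 80.6 in WT. In RNA from whole cultures, fewer cells of a type and less RNA per cell cannot be told apart.

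Differences were unevenly spread over chromosomes. Genes were placed by the order of RefSeq genes in the GRCg7b assembly, and 29 chromosomes held 50 or more tested genes. The 261 genes of chromosome 11 had a median log2 fold change of 0.53, or 0.41 above the median of all genes, and the 298 genes of chromosome 9 had 0.45, or 0.34 above it. Chromosome 21 (171 genes) had a median of -0.29 and chromosome 10 (280 genes) of -0.20, while all others lay between -0.06 and 0.26 and all genes at 0.12. On chromosome 11 the shift was 0.57 on the first and 0.49 on the second day, 78.9% of genes lay above 0, and the medians of 4 equal stretches of gene order ran from 0.39 to 0.58. On chromosome 9 it was 0.56 and 0.32, with stretches from 0.26 to 0.60. The shift thus held along the length of both chromosomes. After quantile normalization, which moved the median of all genes to 0.03, chromosomes 11 and 9 still lay 0.40 and 0.34 above it.

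**Figure D4:**
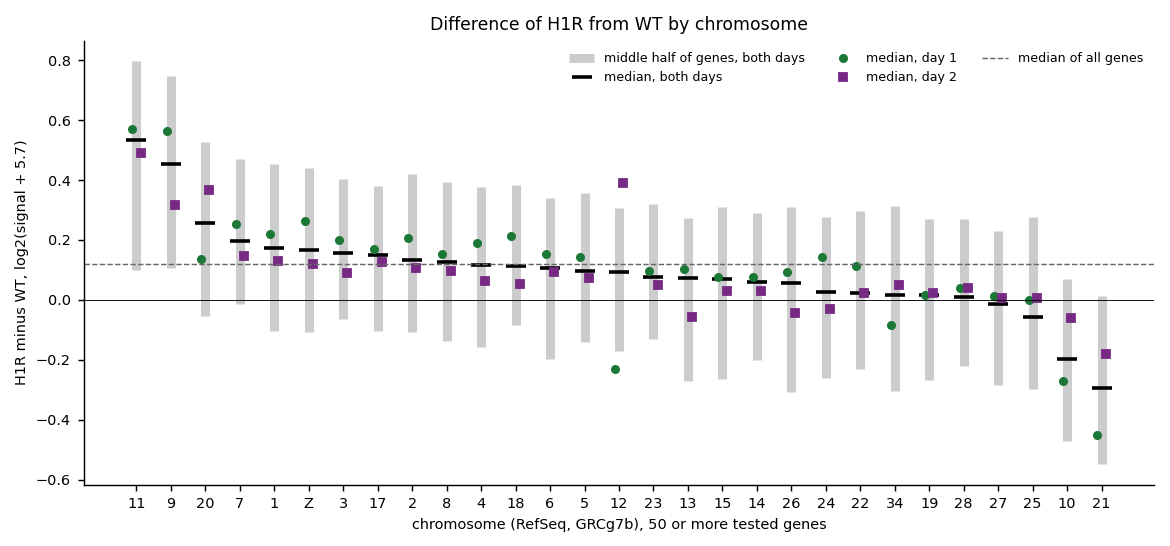
Median difference of H1R from WT in log2(signal + 5.7) for each chromosome with 50 or more tested genes, over both days (black bars) and on each day (circles and squares), with the range between the quartiles of the genes in grey. Chromosomes 11 and 9 lie highest and chromosomes 10 and 21 lowest, and on chromosome 12 the days have opposite signs.

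The shifts of chromosomes 9 and 11 were seen on each array. Deviations were taken from the mean of each gene over the 4 arrays, less the median deviation of all placed genes on the same array. Chromosome 11 deviated by 0.17 and 0.18 on the H1R arrays and by -0.23 and -0.16 on the WT arrays. Chromosome 9 deviated by 0.19 and 0.11 in H1R and by -0.23 and -0.12 in WT. On chromosome 21 the deviations were -0.26 and -0.21 in H1R against 0.35 and 0.08 in WT, and on chromosome 10 they were -0.17 and -0.17 against 0.31 and 0.01, so that WT replicate 1 decided much of both. The second day alone gave -0.18 for chromosome 21 and -0.06 for chromosome 10. Chromosome 12 split by array and not by group, with -0.20 and 0.19 in H1R and 0.16 and -0.14 in WT, and its median was -0.23 on the first and 0.39 on the second day. DNA content was not measured, so chromosome number and expression per copy cannot be told apart.

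**Figure D5:**
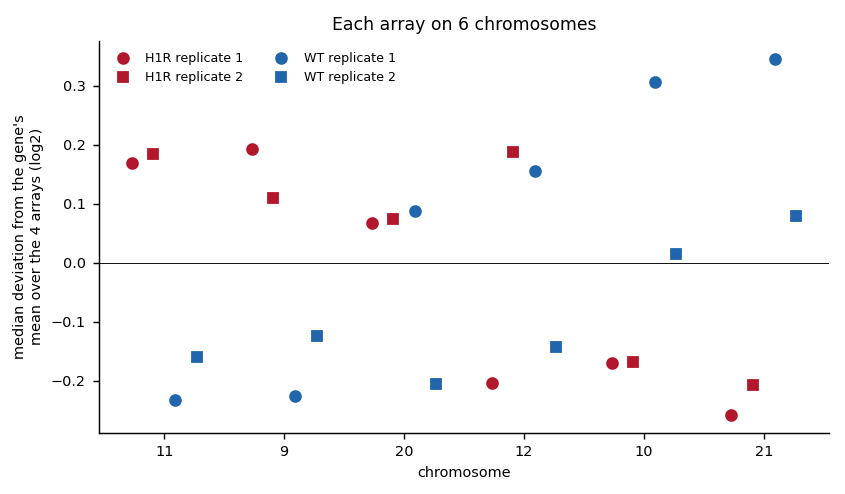
Median deviation of each array from the mean of each gene over the 4 arrays (log2) on 6 chromosomes, less the array's median over all placed genes. H1R is in red and WT in blue, with circles for replicate 1 and squares for replicate 2. On chromosomes 9 and 11 both H1R arrays lie above both WT arrays, on chromosomes 10 and 21 both lie below, and on chromosome 12 the replicates of each group lie on opposite sides of 0.

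Calls followed these shifts in part. On chromosomes 9 and 11 together 69 of 559 genes were higher in H1R (12.3%), against 258 of 9286 elsewhere (2.78%), with a median log2 fold change of 0.995 among the calls on these chromosomes and 1.73 among those elsewhere. On chromosomes 10 and 21 together 30 of 451 genes were lower (6.65%), against 2.23% elsewhere. When the median of each chromosome was subtracted from each array and the 9730 genes were fitted again, higher calls fell to 17 on chromosome 11 and 17 on chromosome 9, against 31 and 23 in the same fit without subtraction. Lower calls fell to 5 on chromosome 10 and 5 on chromosome 21, against 10 and 11. Calls against the shift grew, with 11 lower on chromosome 11 and 8 on chromosome 9, against 6 and 4. Likewise 13 were higher on chromosome 10 and 3 on chromosome 21, against 3 and 0. Subtracting a median moves calls in these directions by itself, so these counts are no test of the shifts. Over all chromosomes 344 genes were then higher and 241 lower, against 256 and 187, and 404 were called in the same direction in both fits. MMP2 on chromosome 11, and CLSTN2 and SLC9A9 on chromosome 9, lay well outside the shift of their chromosomes, as did the falls of ADCY7 on chromosome 11 and of MME and TNFSF10 on chromosome 9, which ran against it.

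Changed genes also lay next to each other. Of 566 called genes with a place on a chromosome, 100 stood in 46 runs of 2 or 3 neighbouring tested genes changed the same way, 33 higher and 13 lower, and 11 of the runs lay on chromosomes 9 and 11. The next tested gene was also higher for 39 of 325 higher genes (12%), against 3.32% of all genes. With chromosomes 9 and 11 left out the shares were 10.5% and 2.79%. For lower genes the next one was also lower in 6.28%, against 2.44% of all genes. Chromosomes 10 and 21, which held more lower genes than the rest, were not left out of these shares. No test was made of these shares.

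Some runs paired strong with weak changes. On chromosome 3 TPD52L1, at least 27.3-fold higher (402.7 and 1159.4 in H1R against 9.2 and 1.0 in WT), lay beside HDDC2 at a log2 fold change of 0.76. The neuronal gene DCX on chromosome 4 lay beside PAK3, a protein kinase, which was at least 2.37-fold higher. SPO11 on chromosome 20 lay beside BMP7, a bone morphogenetic protein, at 1.94, with 215.9 and 344.7 in H1R against 84.8 and 52.2 in WT. HKDC1 on chromosome 6 lay beside its paralogue HK1 at 1.06, and TET1 beside SLC25A16 at 1.64. HDDC2, PAK3, BMP7, HK1 and TET1 passed with the day term alone.

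Runs of 3 included COL1A2, CASD1 and SGCE on chromosome 2, with log2 fold changes of 3.16, 1.72 and 1.10. On chromosome 12 PTPRG, C3orf14 and CADPS rose by 3.26, 1.45 and 2.66, where CADPS, a protein of vesicle priming, read 440.9 and 560.2 in H1R against 62.1 and 87.1 in WT. Adjacent on chromosome 13, TIMD4, a receptor for phosphatidylserine, and SGCD, a sarcoglycan of muscle, were at least 3.13-fold and 4.63-fold higher. A falling run on chromosome 15 joined VPS29L (-2.46), VPREB3 (-2.99) and CHCHD10 (-0.96), and another on chromosome 14 joined CDR2 (-2.69), LOC416622 (-2.06) and METTL9 (-1.17). On chromosome 11, where most shifts were upward, the metallothionein genes MT4 and MT3 were both lower, at -1.54 and -1.97, but near-identical metallothionein transcripts may share probes. SGCE, C3orf14, COL1A2, CHCHD10, METTL9, MT4 and MT3 passed with the day term alone.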

How the data were processed

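RNA of 2 H1R and 2 WT samples was measured on 1-colour arrays. The deposited values are linear signal intensities, 1 per probe set. GCOS is the software that the submitters' processing notes name, without a version, and a scaling target is not given in the sources used here. Precision is limited by how few arrays there are. The deposited intensities were used without rescaling, 96 control probe sets were left out, and 1 array of the series was not analysed here.

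Values were tested as log2(signal + 5.7), the offset being the 25th percentile of all signals, over 23050 probe sets with a mean above 13.6, the 40th percentile. The fit of group and day used lmFit and eBayes with an intensity trend (limma 3.58.1, R 4.3.3), with Benjamini-Hochberg adjustment over all tested probe sets. Arrays of the same number share a date code. Deviations from the mean of the group correlated at 0.191 within a day. The fit had 1 residual and 9.62 prior degrees of freedom. The test was checked on simulated data, with changes set on the fitted log2 scale and the spread drawn from the trend of the fit. Fitted day effects, shuffled over the probe sets, were added. Fold changes were recovered on these data, which cannot show a bias from the offset or the background. Nor can these data check the trend itself, since their spread was drawn from it. The share of false calls exceeded the threshold in some runs with the day as block. Errors given with ± are standard errors. Of 38439 probe sets 27168 had 1 gene symbol in the platform annotation, 177 several and 11094 none, and 26853 matched RefSeq genes (GRCg7b). Genes are represented by their brightest tested probe set, except the 30 largest rises and falls, for which the most changed one is given.

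A lower bound on a fold sets the bright group's mean on the log2 scale against the dim group's mean of, per array, the higher of its signal and its background limit. Genes named are the 30 strongest called rises and falls (1 symbol not starting with LOC, same sign on both days, above the limit on both arrays of the higher group), linker histones, list members past the threshold, and genes in runs of changed neighbours. BTLA and VPREB3 are from the runs. The members and lists were chosen with earlier results of these data known, and patterns that define a list by symbol were corrected after their matches were seen. Alternatives were scaling, offset, filter, trend, the day term, each array left out, and averaging of probe sets, and those with chromosome medians removed or without block and trend were added after the data were seen.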

Additional observations from a re-analysis of the deposited data

How the results depend on the processing

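The 989 probe sets called became 285 with no replicate block, 531 with no filter, 0 by eBayes without a trend (2977 at an unadjusted p under 0.05) and 142 with neither block nor trend. With 1 array left out and no replicate block the count ran from 103 (without WT replicate 1) over 169 (without WT replicate 2) and 323 (without H1R replicate 1) to 425 (without H1R replicate 2). Other settings gave 928 to 1143. Higher probe sets made up 56.6% of calls as deposited, 46.9% after quantile normalization and 51.0% after median scaling, so the balance of directions depends on the scale. The 134 list members called became 57 with no replicate block, 0 by eBayes without a trend, 32 with neither, and 31 to 70 with 1 array left out (63, 70, 31 and 37 without H1R replicates 1 and 2 and WT replicates 1 and 2), and stayed at 92 to 151 otherwise. The 60 largest changes kept their sign in each setting, and all passed in each of the 6 settings of scaling, offset and filter. Of them 50 passed without block and trend. With the block and no trend their limma adjusted p ran from 0.056 to 0.23. The standard deviation of 29 chromosome medians was 0.157, and 0.142 to 0.205 in its alternatives. The log2 fold change of HIST1H111L, -0.10, changed sign to 0.53 without H1R replicate 1 and to 0.21 without WT replicate 2. With genes of chromosomes 9, 10, 11 and 21 left out, 199 genes were higher and 156 lower. Signals under the background limit bound folds and do not measure them.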
